A study of Ovis aries with 40 samples.

Results

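The genes described here are the haemoglobin and myoglobin genes of the sheep array, as measured in longissimus dorsi, the long muscle of the back. They were chosen as the probes whose annotation in the scanner files names hemoglobin, haemoglobin or myoglobin, or whose gene name begins with HBA, HBB, HBE, HBG or HBZ or is MB. The rule found 4 of the 15008 sheep probes, 2 for the beta-globin gene HBB and 2 for the myoglobin gene MB, so 2 of the 978 different gene names on the array. No probe of an alpha, epsilon, gamma or zeta globin met the rule. The 40 one-colour arrays each held the RNA of 1 animal. Texel fetuses, of a heavily muscled breed, were taken on gestation days 70, 85, 100, 120 or 135 (16 arrays), and fetuses of the Ujumqin, a native Chinese breed, at the same 5 stages (15 arrays). Another 9 Ujumqin arrays came from lambs at birth, 1 month and 2 months. Each of these 13 groups had 3 animals, except Texel at 100 d, which had 4 although the protocol names 3 ewes per stage, so that 2 of these fetuses may share a dam. No treatment of the fetuses or lambs is listed. The ewes were purebred and had been brought into oestrus together with a drug-releasing implant and gonadotropin injections. They were then inseminated with sperm of sires of their own breed. These steps are described for the ewes of the fetuses, and no Texel lamb was analysed here. Groups are written below as T70 to T135 and U70 to U135 for the fetuses, and Ubirth, U1mo and U2mo for the lambs.

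Haemoglobin carries oxygen in red blood cells and is built of alpha-like and beta-like globin chains. During development the beta-like chain is replaced, from embryonic to fetal to adult forms, and young lambs of some haplotypes also make a juvenile form encoded by HBBC. Globin mRNA is made in red cell precursors and is still carried by young red cells, so muscle RNA holds as much of it as the blood in the piece of tissue brings. Myoglobin binds oxygen inside the muscle fibre itself and is most abundant in slow, oxidative fibres. In bulk muscle, fewer blood cells and less globin mRNA per cell cannot be told apart.

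The 4 probe sequences are shown because the readings of the HBB probes diverged with age while those of the MB probes did not. Capitals mark the longest run of bases that a probe shares with the other probe of its gene.
HBB, A_70_P051261 (RefSeq-derived probe): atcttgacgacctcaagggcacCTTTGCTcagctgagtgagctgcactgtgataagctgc
HBB, A_70_P061046 (EST-derived probe, bases 25 to 54): acactttttctCTTTGCTgcacaaaactaa
MB, A_70_P029986 (bases 1 to 30): AATCCCAAGTAGTTATAGGGTTTGCTTCTG
MB, A_70_P029987 (bases 1 to 30): gAATCCCAAGTAGTTATAGGGTTTGCTTCT
All 4 probes are 60 bases long. The HBB probes share no run longer than 7 bases, so they read different stretches of transcript. The array design cross-references the RefSeq-derived probe to the transcripts of both HBB and HBBC, and the EST-derived probe to an expressed sequence tag (EST) from a tissue of adult sheep. In RefSeq's ARS-UI_Ramb_v3.0 gene table, HBBC is among the 6 genes that lie between HBE1, an embryonic globin gene, and HBB. Which of these beta-like transcripts each probe binds was not tested, and the signal of either probe is uncertain in that respect. The MB probes share 59 bases and are offset by 1 base, so they repeat 1 measurement rather than give independent ones. The design files call this gene LOC780509, which the RefSeq table names MB.

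Signals are given as log2 of the quantile-normalized processed signal of the array scanner, and a level is compared only with other levels of the same probe. All 4 probes were well above background on all 40 arrays and none was saturated. Probe A_70_P029986 has no value on 2 arrays, T85 replicate 2 and U120 replicate 3, where its spot was marked as an outlier. Over the arrays the median processed signal ran from 217.6 to 708.3, and 79.3% to 90.9% of the probes were well above background. The 40 arrays lay on 5 slides of 8, and every slide held several groups.

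The RefSeq-derived HBB probe stayed high through gestation and fell after birth, with the last lambs 77.1-fold below the oldest Ujumqin fetuses. In the 31 fetuses its signal lay between 15.04 and 17.79 (median 16.53), and it ranked between the 73rd and the 643rd brightest of the 15008 probes. At 70 d it read 16.89, 15.43 and 17.20 in Texel, and 15.60, 17.45 and 16.88 in Ujumqin. At 135 d it read 17.33, 15.04 and 17.79 in Texel, and 16.61, 17.08 and 16.50 in Ujumqin. The ranges at 70 d and 135 d overlapped in both breeds. From 70 d to 135 d the log2 difference was 0.22 ± 0.70 (SE) in Texel and 0.09 ± 0.74 in Ujumqin, and limma gave adjusted p = 0.838 and 0.940. With errors of this size, a 2-fold change in either direction was not detectable with 3 animals a group.

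After birth the same probe read 13.15, 16.47 and 16.26 at birth, 13.35, 12.15 and 13.78 at 1 month, and 11.28, 8.94 and 11.16 at 2 months. Newborn lamb 1 was already within the range of the 1-month lambs, while the other two newborns were within the fetal range. All 3 lambs of 2 months lay below every other array. The drop from U135 to U2mo was -6.27 ± 0.74 on the log2 scale (limma, adjusted p = 5.04e-06), and all 6 of these arrays were on slide 5. Probes called lower in this comparison, at adjusted p under 0.05 with at least a 2-fold change, made up 7.98% of the 14525 probes tested, and both HBB probes were among them.

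The EST-derived HBB probe behaved otherwise in the fetus. At 70 d it read 12.81, 10.32 and 13.36 in Texel, and 10.97, 12.50 and 12.07 in Ujumqin. By 135 d it read 16.88, 14.86 and 17.38 in Texel, and 16.71, 16.91 and 16.23 in Ujumqin. The ranges at 70 d and 135 d did not overlap in either breed. The rise was 4.21 ± 0.84 (SE) in Texel, an 18.5-fold change (limma, adjusted p = 0.00149; between 3.29, without T70 replicate 2, and 4.97, without T135 replicate 2), and 4.77 ± 0.96 in Ujumqin, a 27.4-fold change (adjusted p = 0.000501). Of all probes tested, 10.2% were called higher at 135 d than at 70 d in Texel and 10.7% in Ujumqin, and 3 of the 4 globin and myoglobin probes were called higher in each breed. Between these stages the signal passed through 12.77, 11.38 and 11.53 in T85, and 14.79, 14.86, 14.25 and 14.85 in T100. It read 10.70, 14.43 and 12.42 in U85, and 12.50, 13.77 and 13.84 in U100. At 120 d it stood at 16.51, 17.03 and 14.32 in Texel and at 16.14, 16.49 and 15.33 in Ujumqin, already overlapping the values at 135 d.

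After birth the EST-derived probe fell with the RefSeq-derived one. It read 12.72, 16.57 and 16.56 at birth, 13.90, 13.08 and 14.71 at 1 month, and 12.11, 9.71 and 12.11 at 2 months. Newborn lamb 1 was below every 1-month lamb, and U2mo replicate 2 was the lowest of the 9 lambs. The drop from U135 to U2mo was -5.31 ± 0.96 on the log2 scale, a 39.7-fold change (limma, adjusted p = 0.000304). It stayed called without any 1 array, between -5.71 and -4.51, the latter without U2mo replicate 2. The ranges of U2mo and U70 overlapped for this probe. For the RefSeq-derived probe the 2-month and 70 d ranges lay apart.

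**Figure D1:**
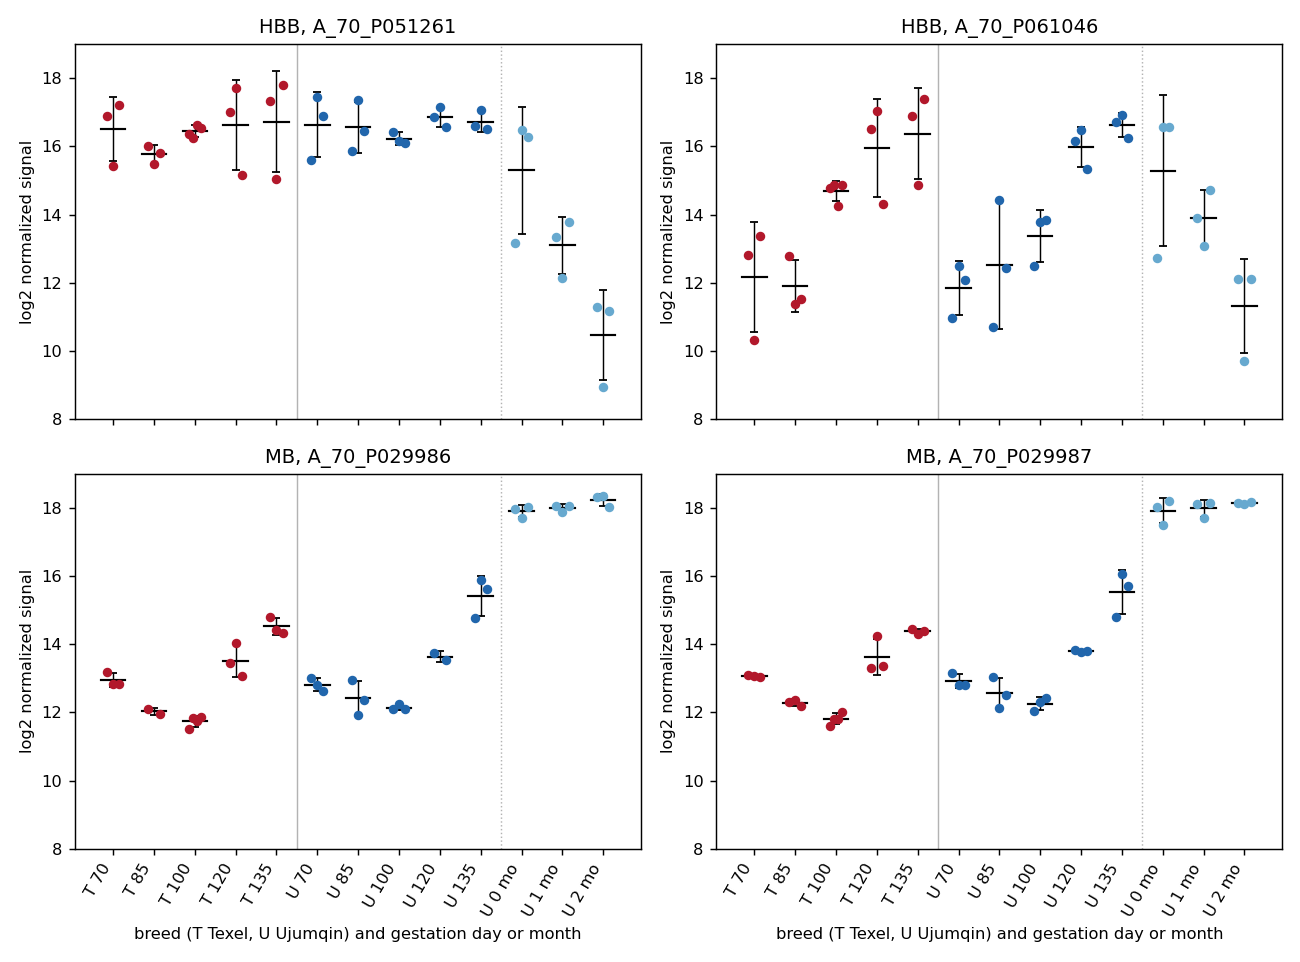
Log2 normalized signal of the 4 probes on each of the 40 arrays, by group (T Texel in red, U Ujumqin fetuses in dark blue, Ujumqin lambs in light blue, with 0 mo for birth); points are arrays, the horizontal bar is the group mean and the error bar 1 SD. The RefSeq-derived HBB probe A_70_P051261 lies between 15.04 and 17.79 in all fetuses and falls in the lambs, the EST-derived HBB probe A_70_P061046 climbs in gestation before falling, and both MB probes have their lowest means at 100 d and their highest in the lambs.

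Both HBB probes were read on every array, and a change in blood RNA that moved both alike would leave their difference as it was. Whether the probes respond alike to the amount of blood RNA was not tested. The difference used here is the log2 signal of A_70_P061046 minus that of A_70_P051261. Probes bind with different strength, so its size has no meaning by itself and only its change between stages was compared. The comparison was chosen after the values were seen. In T70 the difference was -4.34 ± 0.67 (SD, n = 3) and in U70 -4.79 ± 0.16. It was -3.87 ± 0.55 in T85, -4.04 ± 1.12 in U85, -1.75 ± 0.44 in T100 (n = 4) and -2.86 ± 0.93 in U100. Its mean was higher at each later fetal stage in both breeds.

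At 120 d the difference was -0.67 ± 0.18 in Texel and -0.88 ± 0.32 in Ujumqin, and at 135 d it was -0.35 ± 0.14 and -0.11 ± 0.19. All 6 fetuses of 135 d lay above all 6 of 70 d. With the stage labels permuted within each breed, the mean change of 4.34 from 70 d to 135 d had an exact two-sided permutation p = 0.005, the smallest that the 400 assignments allow. Since the comparison was chosen after the values were seen, this p describes the separation of these fetuses. No slide held arrays of both stages, and the permutation cannot tell stage from slide. The change from 70 d to 135 d was 3.99 in Texel and 4.69 in Ujumqin. With 3 animals against 3 no test within 1 breed can go below an exact permutation p = 0.1, and both reached it.

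In the lambs the difference was -0.01 ± 0.38 at birth, 0.80 ± 0.22 at 1 month and 0.85 ± 0.09 at 2 months (SD, n = 3 each). It was 0.96 higher in U2mo than in U135, with no overlap (exact permutation p = 0.1), while the signal of each HBB probe fell by more than 5 log2 units. Set against the 3 fetuses of U135, the 9 lambs of 3 ages differed by 0.65, with an exact two-sided permutation p = 0.0682 over 220 assignments. This pools ages with unlike means, and sets slides 1, 3 and 5 against slide 5, so it is not a test of birth alone. The newborns alone differed from U135 by 0.10 (exact permutation p = 0.8).

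**Figure D2:**
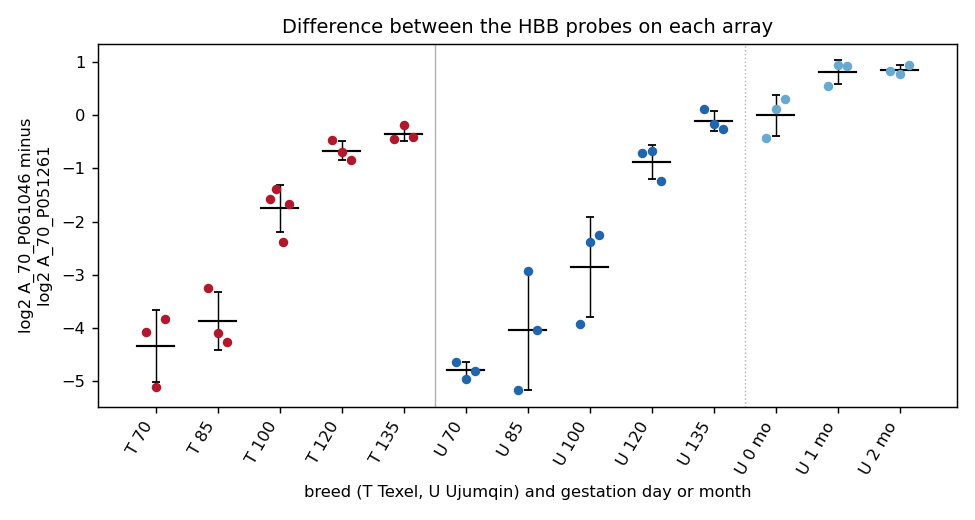
Log2 signal of the EST-derived HBB probe minus that of the RefSeq-derived HBB probe on each array, by group (colours as in the plot of the 4 probes), with the group mean and 1 SD. The group mean goes from -4.34 (T70) and -4.79 (U70) to -0.35 (T135) and -0.11 (U135), and to 0.85 in U2mo.

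Myoglobin followed a course of its own, with its lowest means at 100 d, a rise from then on and its highest level in the lambs. The values of probe A_70_P029987 are given, since it was measured on all 40 arrays. In T70 it read 13.11, 13.06 and 13.04, and in U70 13.15, 12.81 and 12.80. By 100 d it read 11.61, 11.81, 11.80 and 12.004 in Texel and 12.03, 12.31 and 12.41 in Ujumqin, below every value at 70 d of the same breed. At 85 d it was 12.30, 12.37 and 12.19 in Texel and 13.04, 12.13 and 12.50 in Ujumqin.

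From 100 d myoglobin rose in both breeds. At 120 d it read 13.29, 14.24 and 13.37 in Texel and 13.83, 13.77 and 13.80 in Ujumqin, with no overlap with 100 d. The step from 100 d to 120 d was 1.83 ± 0.19 (SE) in Texel (limma, adjusted p = 0.000462) and 1.55 ± 0.27 in Ujumqin (adjusted p = 0.00390). Both MB probes were called higher in this step, against 1.93% of all probes in Texel and 0.716% in Ujumqin, and neither HBB probe was called. The EST-derived HBB probe rose by 1.27 ± 0.79 in Texel and by 2.61 ± 0.96 in Ujumqin (limma, adjusted p = 0.347 and 0.212). Its errors were larger than those of MB, and in Ujumqin its ranges at 100 d and 120 d did not overlap. The call of A_70_P029986 in Ujumqin was lost without U120 replicate 1, where the step was 1.39.

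At 135 d myoglobin read 14.46, 14.30 and 14.37 in Texel, and 14.80, 16.06 and 15.69 in Ujumqin. The step from 120 d was 1.71 ± 0.27 in Ujumqin (limma, adjusted p = 0.000428), where both MB probes and no HBB probe were called higher, against 2.13% of all probes. In Texel the step was 0.74 ± 0.21 (adjusted p = 0.101), and no globin or myoglobin probe was called, against 0.303% of all probes. At an unadjusted p under 0.05, for which no share of all probes is given here, both MB probes passed there, as repeats of 1 measurement. Over the whole span from 70 d to 135 d, A_70_P029987 rose by 1.31 ± 0.21 in Texel, a 2.48-fold change (adjusted p = 0.000268). In Ujumqin it rose by 2.60 ± 0.27, a 6.06-fold change (adjusted p = 3.16e-07). The twin probe A_70_P029986 rose by 1.57 ± 0.23 in Texel and 2.61 ± 0.25 in Ujumqin.

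The largest step of myoglobin between neighbouring Ujumqin stages was at birth. Newborn lambs read 18.03, 17.49 and 18.20, lambs of 1 month 18.10, 17.69 and 18.14, and lambs of 2 months 18.15, 18.11 and 18.16. All 9 lambs lay above all 31 fetuses for both MB probes. From U135 to Ubirth the rise was 2.39 ± 0.27 (limma, adjusted p = 2.22e-06), and both MB probes but neither HBB probe were called, against 10.4% of all probes called higher. All U135 arrays were on slide 5 and all Ubirth arrays on slide 1. With slide as a fixed block the rise was 2.81 ± 0.73 for A_70_P029987 (limma, adjusted p = 0.0488), and the call of A_70_P029986 was lost (limma, adjusted p = 0.122). Among lambs the probe was the 34th to the 103rd brightest, and the steps from birth to 1 month (0.07 ± 0.27) and on to 2 months (0.16 ± 0.27) were within their error. From U135 to U2mo it rose by 2.62 ± 0.27, a 6.16-fold change (adjusted p = 1.11e-06), and both MB probes were called, against 7.06% of all probes called higher. All 4 probes were called in that comparison, with HBB and MB in opposite directions.

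The means of both HBB probes fell in each of the 3 steps after 135 d, but the first of these changes was not called for either probe. From U135 to Ubirth the RefSeq-derived probe changed by -1.43 ± 0.74 (limma, adjusted p = 0.122) and the EST-derived one by -1.33 ± 0.96 (adjusted p = 0.265). Newborn lamb 1 read 13.15 and 12.72 on these probes, and the other newborns between 16.26 and 16.57. From birth to 1 month the values were -2.20 ± 0.74 (adjusted p = 0.0365) and -1.39 ± 0.96 (adjusted p = 0.304), and 1 probe was called lower, against 3.77% of all probes. From 1 to 2 months they were -2.64 ± 0.74 (adjusted p = 0.0284) and -2.59 ± 0.96 (adjusted p = 0.0860), and again 1 probe was called lower, against 2.71% of all probes.

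These stepwise calls of the RefSeq-derived HBB probe rested on few animals. From birth to 1 month the call was lost without Ubirth replicate 2 (-1.61), Ubirth replicate 3 (-1.72), U1mo replicate 1 (-2.33) or U1mo replicate 2 (-1.73), and the change was -3.27 without Ubirth replicate 1. From 1 to 2 months it was lost without U1mo replicate 1 (-2.51), U1mo replicate 3 (-2.29) or U2mo replicate 2 (-1.87). With slide as a fixed block both were lost, at -2.35 ± 1.82 (limma, adjusted p = 0.885) and -1.29 ± 1.66 (limma, adjusted p = 0.914). Ubirth, U1mo and U2mo lay on slides 1, 3 and 5. The drop from U135 to U2mo stayed called without any 1 array, between -6.68 and -5.51, the latter without U2mo replicate 2.

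**Figure D3:**
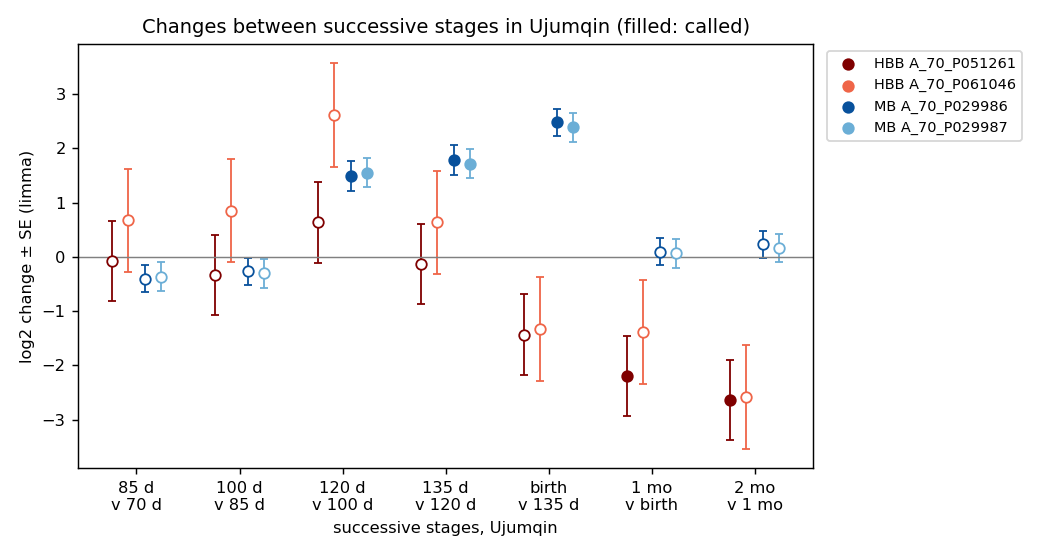
Log2 change between successive stages in Ujumqin for the 4 probes, with the SE of limma (24 arrays); filled points passed adjusted p under 0.05 with at least a 2-fold change. MB moves up at 120 d, 135 d and birth and then stays within its error, while the filled HBB points are negative and lie at 1 month (-2.20) and 2 months (-2.64).

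In the earlier steps of gestation no globin or myoglobin probe was called. From 70 d to 85 d 0.124% of all probes were called in Texel and 0.227% in Ujumqin, and from 85 d to 100 d 0.750% and 1.09%. At an unadjusted p under 0.05, 2 of the 4 probes passed in each Texel step and 0 in each Ujumqin step (limma). The shares above belong to the adjusted threshold and none is given for this one, so these counts describe the 4 probes alone. In the first Texel step the 2 were the MB probes, which repeat 1 measurement, with -0.91 ± 0.26 and -0.78 ± 0.21. In the second they were A_70_P029987 with -0.48 ± 0.19 and the EST-derived HBB probe with 2.79 ± 0.79 (adjusted p = 0.0842), whose ranges in T85 and T100 did not overlap.

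Tests over all stages at once were run in each breed. In Texel, 3 of the 4 probes passed limma's F test over the 5 stages, against 38.2% of all probes. The exception was the RefSeq-derived HBB probe, with adjusted p = 0.733. In Ujumqin all 4 probes passed over the 8 stages, but so did 81.7% of the 14524 probes tested. Over the 5 fetal stages of the Ujumqin alone, a test added after the values were seen, 3 of the 4 passed, against 43.9% of all probes, and the exception was again the RefSeq-derived HBB probe.

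Ordered by mean, the groups of the RefSeq-derived HBB probe ran from U120 (16.86) through the other fetal groups to T85 (15.77), then Ubirth (15.29), U1mo (13.09) and U2mo (10.46). Of the 12 pairs of neighbours in that order, 2 had ranges that did not overlap, U100 over T85 and U1mo over U2mo. For the EST-derived probe the order ran from U135 (16.62) and T135 (16.37) down to U70 (11.84) and U2mo (11.31), and every pair of neighbours overlapped. For MB probe A_70_P029987 it ran from U2mo (18.14), U1mo (17.98) and Ubirth (17.91) to U135 (15.52) and T135 (14.38), and down to T100 (11.80). Here 5 of the 12 pairs did not overlap, among them Ubirth over U135, U135 over T135 and T135 over U120. Its twin had 3 such pairs. The groups were sorted by these same values and no share over all probes is given. These counts therefore describe the order and are not a trait of these genes.

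The breeds were compared at each fetal stage to ask whether globin and myoglobin mRNA differed between a heavily muscled and a native sheep. No probe of the 4 was called at any of the 5 stages by limma. Calls were rare on the whole array, and their share of all probes was 0.117% in the 70 d comparison, 0.0207% for the 85 d fetuses, 0.0138% for those of 100 d, 0.0344% on day 120 and 0.0207% on day 135. At an unadjusted p under 0.05 with a 2-fold change, 1 of the 4 passed at 100 d, against 1.40% of all probes, and 1 at 135 d, against 2.09%. At 70, 85 and 120 d 0 of the 4 passed, against 3.15%, 2.00% and 3.83% of all probes. The methods' t-test found 0 of the 4 at any stage with either threshold.

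The probe that passed at 100 d was the EST-derived HBB probe. It was higher in T100 (14.25 to 14.86) than in U100 (12.50 to 13.84), with no overlap, by 1.32 ± 0.34 (limma, unadjusted p = 0.00600, adjusted p = 0.243). The RefSeq-derived probe differed by 0.21 ± 0.14 at that stage. The 3 Texel and 1 Ujumqin arrays of that stage on slide 3 differed by 2.15 for the EST-derived probe. The 2-fold change held without any 1 array except U100 replicate 1, where it was 0.88.

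At 135 d the passing probe was A_70_P029987 of MB. It was lower in T135 (14.30 to 14.46) than in U135 (14.80 to 16.06), with no overlap, by -1.14 ± 0.33 (limma, unadjusted p = 0.0113, adjusted p = 0.668). Its twin differed by -0.90 ± 0.32 (unadjusted p = 0.0286), and the ranges overlapped. On slide 5, which held 2 of the Texel and all of the Ujumqin arrays, the differences were -1.18 and -1.04. Without U135 replicate 2 the difference of A_70_P029987 was -0.87, under 2-fold. All Ujumqin fetuses of 135 d were female, while T135 replicates 1 and 3 were male and replicate 2 was female. At 100 d both MB probes were also lower in Texel, by -0.45 ± 0.14 and -0.40 ± 0.12 (adjusted p = 0.291 and 0.278). At 120 d all Texel fetuses were male and all Ujumqin fetuses female, so that sex and breed cannot be told apart there, and the 4 differences lay between -0.24 and -0.03. At 70 d, where the breeds shared no slide, they lay between -0.14 and 0.32.

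Whether the breed difference itself changed with stage was tested over the 31 fetuses. No probe of the 4 passed limma's F test of the interaction, against 0.165% of all probes, and at an unadjusted p under 0.05 1 passed, against 13.7%. Taken as the 135 d minus 70 d change alone, the change of myoglobin in Texel minus that in Ujumqin was -1.29 ± 0.36 (unadjusted p = 0.00140, adjusted p = 0.168) for A_70_P029987 and -1.03 ± 0.38 (adjusted p = 0.250) for its twin. Again 0 of the 4 were called, against 0.0688% of all probes, and with the unadjusted p and a 2-fold change both MB probes and no HBB probe passed, against 4.95%. For the HBB probes the difference between the breeds was 0.13 ± 0.87 (RefSeq-derived) and -0.56 ± 1.18 (EST-derived).

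Slide and stage overlapped in this design. Arrays of 70 d and 135 d shared no slide in either breed. With slide as a fixed block in a fit over all groups, which links 70 d to 135 d through the groups that span slides, the rise of the EST-derived HBB probe was 5.17 ± 2.74 in Texel and 5.45 ± 2.55 in Ujumqin (limma, adjusted p = 0.399 and 0.260). That of A_70_P029987 was 0.85 ± 0.67 and 2.04 ± 0.62 (adjusted p = 0.629 and 0.0657). The values kept their direction and the calls were lost, except for A_70_P029986 in Ujumqin (2.65 ± 0.66, adjusted p = 0.0248). Within slide 4, the step from U100 to U120 was 2.18 for the EST-derived HBB probe and 1.44 for A_70_P029987, each with 3 against 2 arrays. Within slide 3, the step from T100 to T120 was 1.86 and 1.42, with 1 array against 3. With the fixed block the EST-derived HBB probe no longer passed the F test over the Texel stages, which left 2 of the 4 probes. The change of the difference between the HBB probes from 70 d to 135 d was 4.07 in Texel and 4.11 in Ujumqin. The comparison of U2mo with U135 lay wholly on slide 5, and its values did not move with the block.

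In most groups the animals differed more in HBB than in MB. The SD of a group reached 1.86 for the RefSeq-derived probe and 2.22 for the EST-derived one, both at birth, and 0.65 for A_70_P029987, in U135. In U135 the order was reversed, with SDs of 0.31 and 0.35 for the RefSeq-derived and EST-derived HBB probes. In U100 A_70_P029987 (0.20) was also slightly above the RefSeq-derived HBB probe (0.18). After the group means were taken off, the HBB probes moved together over the 40 arrays, with Pearson r = 0.91 and Spearman rho = 0.91 (permutation within groups, p = 1e-05 each, the smallest that 100000 permutations give). Adjusted over the 6 pairs of probes tested, p was 3e-05. Without the 2 arrays farthest from the median r was 0.89, and within the 5 slides it lay between 0.62 and 0.99. The arrays lowest in both were U2mo replicate 2, Ubirth replicate 1, T135 replicate 2, T120 replicate 3 and T70 replicate 2, each at least 1 log2 unit under its group mean.

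HBB and MB showed no such relation. Their brightest probes had Pearson r = 0.03 (permutation p = 0.867) and Spearman rho = 0.03 (permutation p = 0.892), and r = 0.06 without the 2 farthest arrays. Within single slides of 8 arrays r ran from -0.81 on slide 2 to 0.82 on slide 4, so the sign was not shared. The 2 MB probes, which repeat 1 measurement, had r = 0.87 over 38 arrays.

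**Figure D4:**
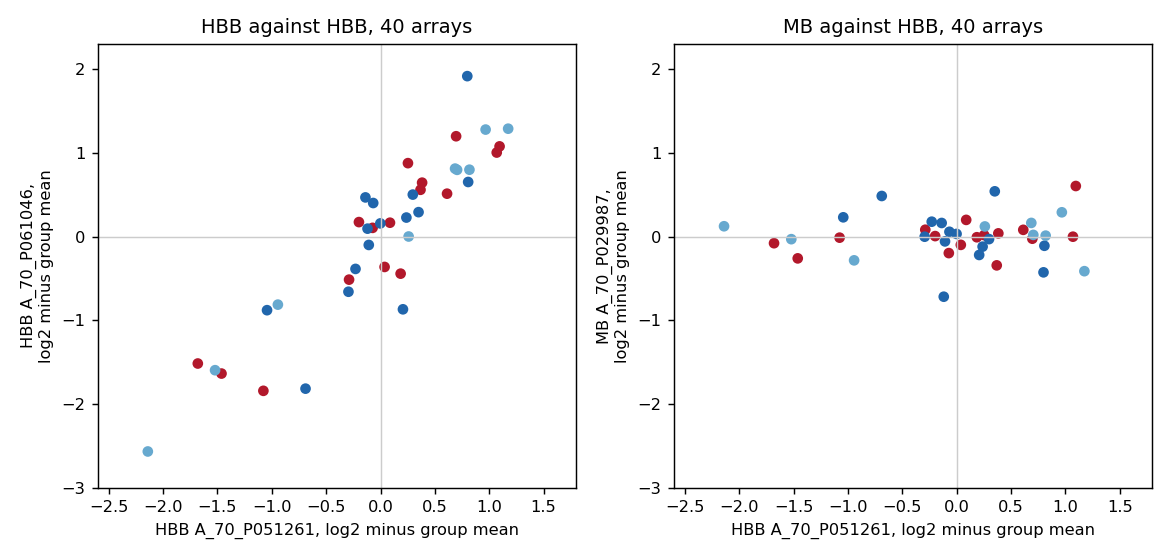
Deviation of each of the 40 arrays from its group mean, in log2 units, for the RefSeq-derived HBB probe (x axis) against the EST-derived HBB probe (left) and against MB probe A_70_P029987 (right); red points are Texel fetuses, dark blue Ujumqin fetuses and light blue Ujumqin lambs. The left panel shows the HBB probes moving together (r = 0.91), and the right panel shows no relation with MB (r = 0.03) and a narrower spread of MB.

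Few other red cell genes were on the array. Of 38 listed markers of erythroid cells other than globins, 5 had a named probe. They were ERAF, which encodes the protein that stabilizes free alpha-globin, EPOR, the erythropoietin receptor, the carbonic anhydrase CA1, and the mitochondrial carriers SLC25A37 and SLC25A38. CA1 was well above background on 19 of the 40 arrays and the others on all 40. None of the 5 was called from 70 d to 135 d in either breed or from U135 to U2mo by limma, and at an unadjusted p under 0.05 the counts were 0 in Texel, 1 in Ujumqin and 1 in the last comparison. Their median changes were -0.36, 0.16 and 0.00, beside -0.04, -0.04 and 0.01 over all probes. Their summed normalized signal ran from 1045.0 to 1410.0 in U135 (median 1171.8) and from 1172.7 to 4925.3 in U2mo (median 1280.9), where the highest value is that of replicate 3, with high ERAF. At birth EPOR was called higher than in U135, by 1.06 ± 0.37 (adjusted p = 0.0261).

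ERAF was compared with HBB array by array. Its deviations from the group mean had r = 0.32 with the RefSeq-derived HBB probe (permutation p = 0.174) and r = 0.33 with the EST-derived one (permutation p = 0.0980), and within slides r ran from -0.67 to 0.59 and from -0.53 to 0.62. On U2mo replicate 2, where both HBB probes were lowest, the deviation of ERAF was -2.10 log2 units. It was -1.50 on U2mo replicate 1 and 3.60 on replicate 3, where HBB was above the group mean on both. On the other arrays low in both HBB probes the deviation of ERAF was -1.32 (T135 replicate 2), -0.29 (T70 replicate 2), -0.13 (T120 replicate 3) and 0.15 (Ubirth replicate 1).

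Markers of the other blood cells were also counted. Of 32 listed leukocyte and platelet genes, 10 had a named probe. From T70 to T135 0 were called, against 10.2% of all probes called higher. In U135 2 (LYZ and SELP) were higher than in U70, against 10.7%, while 6 were higher in U2mo than in U135, against 7.06%. In that last comparison CD3D and CD3E, CD3 subunits of the T cell receptor complex, rose by 2.80 ± 0.27 and 2.10 ± 0.32 (limma, adjusted p = 7.10e-07 and 5.59e-05). LYZ, encoding lysozyme, rose by 2.05 ± 0.36. CD4, also called, was well above background on 4 of the 40 arrays. The summed signal of the 10 genes ran from 2834 to 3671 in U135 and from 6092 to 8625 in U2mo. From U135 to Ubirth 3 of the 10 were called, and the list's median change was 0.06. The share of these cells in the HBB change was not tested.

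Of 49 listed genes of slow and oxidative muscle, 6 had a named probe, and none of the 6 encodes a contractile protein. From T70 to T135, 5 were called higher, against 10.2% of all probes, and from U70 to U135 it was 4, against 10.7%. The median changes of the 6 were 2.02 and 2.41. The mitochondrial transporter SLC25A4 rose by 2.06 ± 0.22 and 2.38 ± 0.13, and CPT1B, which admits fatty acids to mitochondria, by 1.98 ± 0.29 and 2.43 ± 0.20. UCP3, an uncoupling protein of muscle, rose by 5.05 ± 0.61 and 6.30 ± 0.58, the latter set against U70, where 1 of the 3 arrays was well above background, and by 4.31 ± 0.58 from U135 to U2mo. It was also called in the step from U135 to Ubirth, with 4.09 ± 0.58 (adjusted p = 2.16e-05), and in that from U100 to U120, with 2.40 ± 0.58, while none of the 6 was called from U120 to U135, where 3 passed an unadjusted p under 0.05. From U135 to U2mo 3 of the 6 were higher, UCP3, the regulator of mitochondrial genes PPARGC1A (2.45 ± 0.79) and the lipase LPL (1.11 ± 0.35).

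Of 32 listed skeletal muscle genes, 7 had a named probe. Among these, 3 were higher at 135 d than at 70 d in each breed, against 10.2% of all probes in Texel and 10.7% in Ujumqin. They were the glycolytic enzyme ENO3, the glycogen phosphorylase PYGM and the tropomyosin TPM1. PYGM was also called in the 3 steps in which MB was called in Ujumqin, by 1.07 ± 0.24, 1.26 ± 0.24 and 1.61 ± 0.24. From U135 to U2mo PYGM was higher and MYOD1, a myogenic regulator, lower by -1.22 ± 0.33.

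The list of 25 oxygen-sensing and vessel genes had 9 with a named probe. In each breed 3 of the 9 were called higher from 70 d to 135 d, against 10.2% of all probes in Texel and 10.7% in Ujumqin. VEGFA, the growth factor of vessels, rose by 2.91 ± 0.36 in Texel and 3.21 ± 0.28 in Ujumqin, the caveolin CAV1 by 1.82 ± 0.28 and 1.67 ± 0.22, and EPAS1, a hypoxia-responsive factor, by 1.69 ± 0.43 and 2.40 ± 0.33. VEGFA was also called in the step from 100 d to 120 d in both breeds, as MB was. From U135 to U2mo none of the 9 was called higher and 2 were lower, the VEGF receptor KDR (-1.93 ± 0.26) and CAV1 (-1.07 ± 0.22).

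Of 33 listed genes of haem and iron handling, 5 had a named probe. Lactoferrin (LTF, 3.53 ± 1.00) and transferrin (TF, 1.11 ± 0.33) were the 2 higher in T135 than in T70, against 10.2% of all probes. LTF was higher in U135 (against 10.7% of all probes) than in U70 (4.79 ± 0.69), where 1 of the 3 arrays was well above background. From U135 to U2mo LTF was lower by -2.77 ± 0.69, and CP was called higher although it was well above background on 1 of the 40 arrays. UROD, an enzyme of haem synthesis, and FTH1, the heavy chain of ferritin, were not called in these 3 comparisons.

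In the single steps with a called globin or myoglobin probe, few other listed genes were called. From T100 to T120 these were VEGFA, LPL (1.81 ± 0.32), PYGM and ENO3, and from U100 to U120 VEGFA, UCP3, PYGM and ENO3, all higher. From U135 to Ubirth the myogenic regulator MYOG was higher by 1.55 ± 0.25 and TF lower by -1.53 ± 0.59, and of the leukocyte genes 3 were higher, with TYROBP, an adaptor of innate immune cells, at 1.22 ± 0.20, the integrin ITGAM at 1.25 ± 0.41 and CD4 at least 6.97-fold higher than in U135, where it was not well above background. From birth to 1 month CD3D, CD3E and LYZ were higher and CD4 lower, and from 1 to 2 months SELP and CD4 were higher and MYOG lower, though CD4 was not well above background in either group.

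Over the 40 arrays the named genes most like the brightest HBB probe, the RefSeq-derived one, were RPS6 (Pearson r = 0.85), SHMT1 (r = 0.82, named SHMT2 in the design files) and IGF2 (r = 0.81). Those most like MB were VDAC1 (r = 0.96), ENDOG (r = 0.96) and SLC25A20 (r = 0.95). These coefficients describe 1442 named probes over arrays that share breeds, stages and slides, and carry no test.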

How the data were processed

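Longissimus dorsi RNA of 40 sheep was labelled with Cy3 and hybridized to one-colour Agilent arrays, 1 animal per array. The authors scanned and extracted them with Agilent Feature Extraction 10.5, and the processed signal used here is a deposited intensity, per the file headers already background-corrected by that program. The deposited table of log2 normalized values was used as an alternative. Outlier spots were dropped, spots of a probe averaged, the 40 arrays quantile-normalized together, values under 1 set to 1, and log2 taken. Of 15008 probes, 14525 that were well above background on at least 1 array were tested with limma 3.58.1 (R 4.3.3). A probe was called at adjusted p (Benjamini-Hochberg over all tested probes) under 0.05 with at least a 2-fold change, and in F tests at adjusted p under 0.05.

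Breeds were compared per stage, as in the study's methods, with limma in place of their t-test, stages within each breed, and the interaction over the fetuses. Replicate numbers only name animals, and same-numbered arrays did not deviate together (r from -0.31 to 0.11 over 24 pairs). Exact permutation tests, covariation tests and figures used Python 3.11.15, scipy 1.17.1 and matplotlib 3.10.9. The limma scripts were tested on simulated data. Gene names came from the design files and, for 810 of 1605 named probes, from the RefSeq gene table of ARS-UI_Ramb_v3.0. Its coordinates served only to order the genes from HBE1 to HBB and are not printed, since the files name no build. Every globin and myoglobin probe is named. From 6 gene lists, genes called in comparisons with a called globin or myoglobin probe are counted and up to 4 a list are named by size of change. Gene levels use the brightest probe, and a fold written as at least N is set against the higher of the probe's own signal and the lowest signal well above background on each array. Members and lists were chosen with earlier results of these data known. The number of arrays limits the precision, and p-values measure the spread between these animals. The genome, promoter and protein sequences of these genes were not analysed here.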

Additional observations from a re-analysis of the deposited data

Results flagged for a closer look

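In the group of 4 Texel fetuses at 100 d, the EST-derived HBB probe (A_70_P061046) had 1 array apart from the others. Replicate 3 read 14.25 and the other three read 14.79 to 14.86, so the gap took up 0.888 of the whole range, above Dixon's 95% critical value for 4 samples. Chance flags about 1 in 20 such groups, and 4 probes were looked at in this group.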

How the results depend on the processing

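Leaving out each array in turn moved no count of called probes: 3 of 4 by stage and from 70 d to 135 d in Texel, 4 of 4 by stage, 3 of 4 from 70 d to 135 d and 4 of 4 from 135 d to 2 months in Ujumqin, and 0 between the breeds and for the interaction. With slide as a fixed block the counts from 70 d to 135 d fell to 0 in Texel and 1 in Ujumqin, that by stage in Texel to 2, and the stepwise calls of the RefSeq-derived HBB probe at 1 month (-2.35) and 2 months (-1.29) were lost. Between the breeds the count was 2 at an unadjusted p with 2-fold. The correlation of HBB with MB was -0.30 on slide 1 and -0.81 on slide 2, against 0.03 over all arrays, and the cause was not tested. With the replicate number as a replicate block the counts were the same, with 4.21 and 4.77 for the EST-derived HBB probe from 70 d to 135 d. The other alternatives (75th percentile or median scaling, normexp with an offset of 50, the deposited table, fetal arrays alone, other filters, a floor of 16, no fold threshold, 1 fit over all groups, sex, trend and robust variances, array weights, slide as a random block) kept these counts within 1.5 times and turned no named change around. The random slide block ended the same stepwise calls (-2.23 and -2.59). The change of the HBB probe difference in Ujumqin from 70 d to 135 d, 4.69, was 4.11 with slide as a fixed block, 4.40 with 75th percentile or median scaling and 4.45 with sex. With 3 animals a group, breed differences of under about 2-fold in HBB were mostly within the spread, and larger ones could be missed too. The spread was smaller at 100 d, with an SE of 0.14 for the RefSeq-derived probe. The SE of a breed difference reached 0.94 on the log2 scale for the EST-derived HBB probe, at 85 d. At 100 d the 2.49-fold breed difference of that probe was not called (limma, adjusted p = 0.243).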
